A study of Mus musculus with 4 samples.

Results

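The immediate early genes described here encode 10 transcription factors of 3 kinds, namely the AP-1 family (Fos, Fosb, Fosl2, Jun, Junb and Atf3), the EGR family (Egr1) and the NR4A orphan nuclear receptors (Nr4a1, Nr4a2 and Nr4a3). Members were taken by name from the array annotation, through probe sets that carry exactly 1 gene symbol, and 9 of the 10 were measured, among 30142 named genes in all. Each of these 9 had 1 probe set. Junb was not measured in this sense, because its 1 probe set is also annotated to the neighbouring gene Prdx2, and no value is given for it. The 4 arrays held lineage-negative, c-Kit-positive (LK) cells, a fraction rich in blood progenitors, from mice of the diabetes-prone NOD strain, kept for 4 h at 37 °C in StemSpan medium. The 2 vehicle samples received DMSO. The 2 combination samples received dmPGE2 (10 µM), a long-lived analog of prostaglandin E2, together with dexamethasone (10 µM), a synthetic glucocorticoid. No array held either agent alone. The submitters call the duplicates biological. No source used here gives the age or number of the animals behind a sample, or says that the cells were cultured separately, so p-values measure the spread between these samples only.

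Immediate early genes are transcribed within minutes of a stimulus from factors already present in the cell, and their transcripts are short-lived, so a sample at 4 h is a late one for them. FOS and JUN proteins pair through leucine zippers to form AP-1, EGR1 binds GC-rich sites through zinc fingers, and NR4A proteins bind DNA without a known classical hormone. The receptors for prostaglandin E2 that raise cAMP act through the kinase PKA and the factor CREB, which binds CRE motifs upstream of Fos and Nr4a genes. The glucocorticoid receptor is known to restrain AP-1 at many promoters. In blood formation, mice without Nr4a1 and Nr4a3 develop myeloid leukaemia.

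The stretches upstream of 4 members are shown because these genes span the largest differences (Fosl2 and Fos), an intermediate one (Nr4a1) and a FOS paralog with a small one (Fosb). Each is the 250 bases before the annotated start, from RefSeq on GRCm38.p6, read 5′ to 3′ on the gene's strand. Capitals mark matches to a motif on either strand.
Fos, chr12:85473640-85473889, plus strand: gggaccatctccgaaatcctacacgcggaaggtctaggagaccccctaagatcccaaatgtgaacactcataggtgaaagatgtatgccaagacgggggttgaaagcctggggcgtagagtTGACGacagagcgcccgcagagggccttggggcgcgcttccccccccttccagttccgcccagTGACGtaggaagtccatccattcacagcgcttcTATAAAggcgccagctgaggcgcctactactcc
Fosl2, chr5:32136222-32136471, plus strand: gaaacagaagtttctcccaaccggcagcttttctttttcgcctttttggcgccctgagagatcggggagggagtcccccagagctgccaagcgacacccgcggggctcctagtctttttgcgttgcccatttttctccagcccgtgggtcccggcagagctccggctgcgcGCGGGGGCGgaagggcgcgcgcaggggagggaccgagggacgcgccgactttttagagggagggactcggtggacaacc
Nr4a1, chr15:101266596-101266845, plus strand: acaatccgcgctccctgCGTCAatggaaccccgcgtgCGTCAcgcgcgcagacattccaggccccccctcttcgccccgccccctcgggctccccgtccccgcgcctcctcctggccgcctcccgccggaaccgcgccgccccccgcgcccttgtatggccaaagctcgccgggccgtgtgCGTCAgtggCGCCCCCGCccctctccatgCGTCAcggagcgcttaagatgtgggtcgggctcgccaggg
Fosb, chr7:19310046-19310295, minus strand: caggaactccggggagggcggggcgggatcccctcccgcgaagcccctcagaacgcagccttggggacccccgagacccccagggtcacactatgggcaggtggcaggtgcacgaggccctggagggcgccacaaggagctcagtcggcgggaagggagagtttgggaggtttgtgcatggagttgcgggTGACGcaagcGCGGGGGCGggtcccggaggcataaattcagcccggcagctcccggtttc

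The motifs searched were the full CRE TGACGTCA, its core TGACG, the AP-1 site TGANTCA, the EGR site GCGNGGGCG, the NR4A site AAAGGTCA, the glucocorticoid receptor core ACANNNTGT, the TATA box TATAAA and the CArG box of serum response factor. The core lies within the full CRE, so any full CRE would also count as a core. Of 10 members, 9 had an entry in the promoter table. Egr1 had none, while Junb, which was not measured on the arrays, did. The CRE core was found in 7 of these 9 windows, against 17.8% of all 32851 windows of the same length. Fos had it 129 and 66 bases before the start, with a TATA box at 33. Nr4a1 had it at 233, 213, 69 and 40 bases, and Fosb at 60. The windows of Fosl2 and Jun held no CRE core. An EGR site lay in the windows of Fosl2 (79 bases before the start), Fosb (50), Nr4a1 (60) and Nr4a2 (74), against 4.7% of all windows. The letters TATAAA were found in 2 of the 9 windows, against 12.4% of all windows. Beside Fos this was Nr4a2, on the opposite strand and 164 bases before the start. None of the 9 windows held a full CRE (1.55% of all windows), an AP-1 site (6.75%), an NR4A site (1.34%), a glucocorticoid receptor core (5.84%) or a CArG box (1.47%). The 9 windows held from 58.4% (Fos) to 80% (Nr4a2) G and C. Both the CRE core and the EGR site contain CG, and the shares of all windows were not matched for base content. A match describes letters in this window only.

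**Figure D1:**
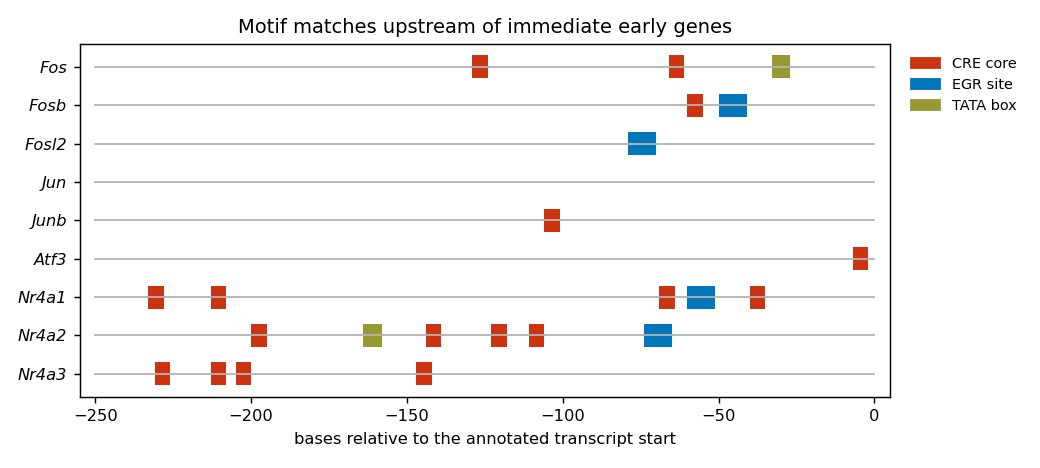
Motif matches in the 250 bases before the annotated start of 9 members, all but Egr1. The horizontal axis gives the distance to the start in bases, with 1 line per gene. Red marks the CRE core (7 genes), blue the EGR site (4 genes) and olive the letters TATAAA, while Jun has no match. The TATAAA match of Fos is on the gene's strand and that of Nr4a2 on the opposite strand.

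All values below are log2 RMA signals, differences are combination minus vehicle, SDs are over 2 arrays and standard errors (SE) and intervals are those of limma's moderated fit to all 65956 features. The intervals are not adjusted for the number of features. On the arrays, 23 background probe sets averaged 3.07 to 3.16, and single ones reached 5.55, which serves here as the upper edge of background. The LK label was checked against its markers. Of 6 measured, 1 was higher and 5 lower with the combination, with a median difference of -0.15. Kit was at 10.18 and 10.32 with vehicle and 10.51 and 9.62 with the combination. Myb was at 11.53 and 11.85 against 11.22 and 11.15, and Cd34 at 9.50 and 10.48 against 9.38 and 10.38. Gata2 was at 7.43 and 7.47 against 7.31 and 7.36, Flt3 at 5.92 and 7.25 against 6.01 and 6.71, and Cd93 at 9.28 and 9.86 against 9.54 and 10.26. Of 7 T and NK cell markers, 6 stayed within background on every array, the defining T cell genes Cd3e, Cd3d, Cd3g, Cd4 and Cd8a among them, and Nkg7 lay between 12.51 and 13.03. Of 4 measured B lineage markers, Cd79a, Ms4a1 and Pax5 stayed there too, and Cd79b lay above background at 5.99 to 6.57. Neutrophil markers separated the array numbers and not the treatments. Their mean signal over 7 genes was 11.31 on vehicle 1 and 11.33 on combination 1, against 8.16 on vehicle 2 and 8.58 on combination 2. The granule gene Ngp was at 14.82 and 14.98 against 8.69 and 9.93, while Ly6g was in background throughout. For this reason each member is also given within array number 1 and within array number 2. Among 5 dendritic cell markers 3 were higher and 2 lower with the combination, with a median difference of 0.13, which is that of Xcr1. Cd209a was at 8.71 and 8.92 with vehicle and 6.62 and 6.51 with the combination, Siglech at 6.36 and 6.30 against 6.48 and 6.44, and Itgax, Zbtb46 and Xcr1 were in background throughout. The mean of the list was 5.70 and 5.63 against 5.29 and 5.18. Of 6 measured monocyte and macrophage markers 3 were higher and 3 lower, with list means of 7.68 and 7.79 against 7.61 and 7.41. Csf1r was at 9.12 and 9.77 against 8.39 and 8.67, Adgre1 at 7.14 and 7.32 against 6.72 and 6.62, and Ms4a7, in background, at 4.58 and 4.30 against 5.30 and 4.98. Of 4 measured erythroid markers 0 were higher and 4 lower, with list means of 9.92 and 9.91 against 9.20 and 9.72. These means hide opposite shifts between the array numbers. Klf1 was at 11.53 and 9.96 against 10.86 and 10.08, and Alas2 at 8.16 and 9.49 against 7.62 and 9.42. Epor was likewise higher on number 1 in both groups, and Slc4a1 on number 2. Of 5 mast cell and basophil markers 1 was higher and 4 lower, with list means of 10.49 and 10.78 against 10.26 and 10.49. The parts of these cell types in the results were not tested. In whole-sample RNA, fewer cells of a type and less RNA per cell cannot be told apart.

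**Figure D2:**
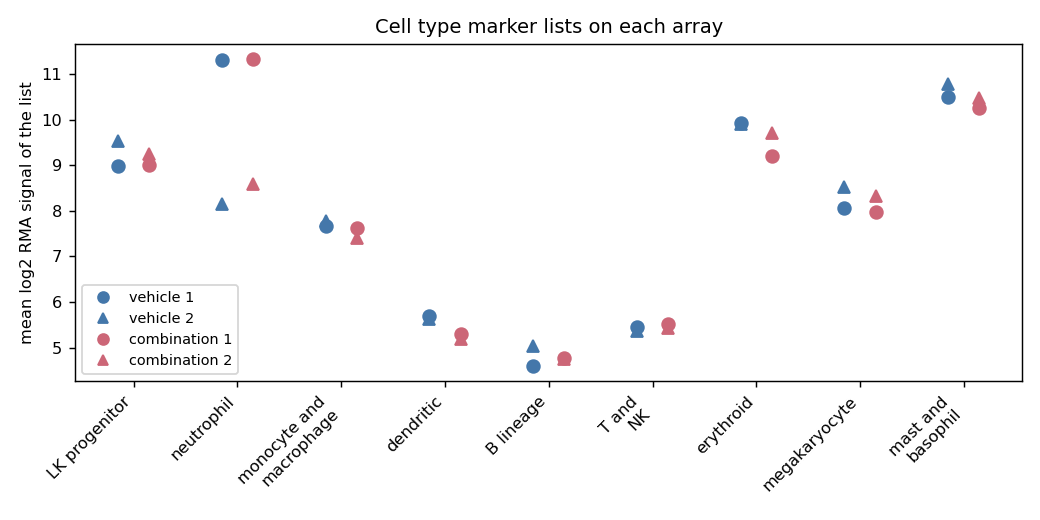
Mean log2 RMA signal of each of 9 cell type marker lists on the 4 arrays, with blue for vehicle, red for the combination, circles for number 1 and triangles for number 2. Only arrays within a list are comparable. The neutrophil list lies above 11 on both arrays numbered 1 and below 9 on both numbered 2.

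At 4 h the highest differences among the members were in the FOS family, at Fosl2 and Fos, while Jun, Fosb, Atf3, Egr1 and Nr4a2 had overlapping groups. No member passed limma's test over all features after Benjamini-Hochberg adjustment (0 of 9, against 2 of 65956 features or 0.00303%, and 1 of 30142 named genes or 0.00332%). At an unadjusted limma p under 0.05, 4 of 9 were higher (Fosl2, Fos, Nr4a1 and Nr4a3) and 0 lower, against 2.66% of named genes higher and 2.65% lower. The same 4 had both combination arrays above both vehicle arrays, as did 19.7% of named genes, and no member had both below, as did 15.4%. The difference exceeded 1 for 2 of the 9, against 0.886% of named genes. The median difference was 0.20 over the 9 members and 0.01 over all named genes, with 0.12 within number 1 and 0.51 within number 2. The unadjusted count of 4 fell without vehicle 1, without vehicle 2 and without combination 2, in fits with fewer residual degrees of freedom. It stayed the same without combination 1. The share of named genes was not taken in those fits. The median was 0.05 without combination 2, 0.37 without combination 1, 0.37 without vehicle 1 and 0.29 without vehicle 2. An exact permutation test of 2 arrays against 2 cannot go below a two-sided p of 0.333.

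**Figure D3:**
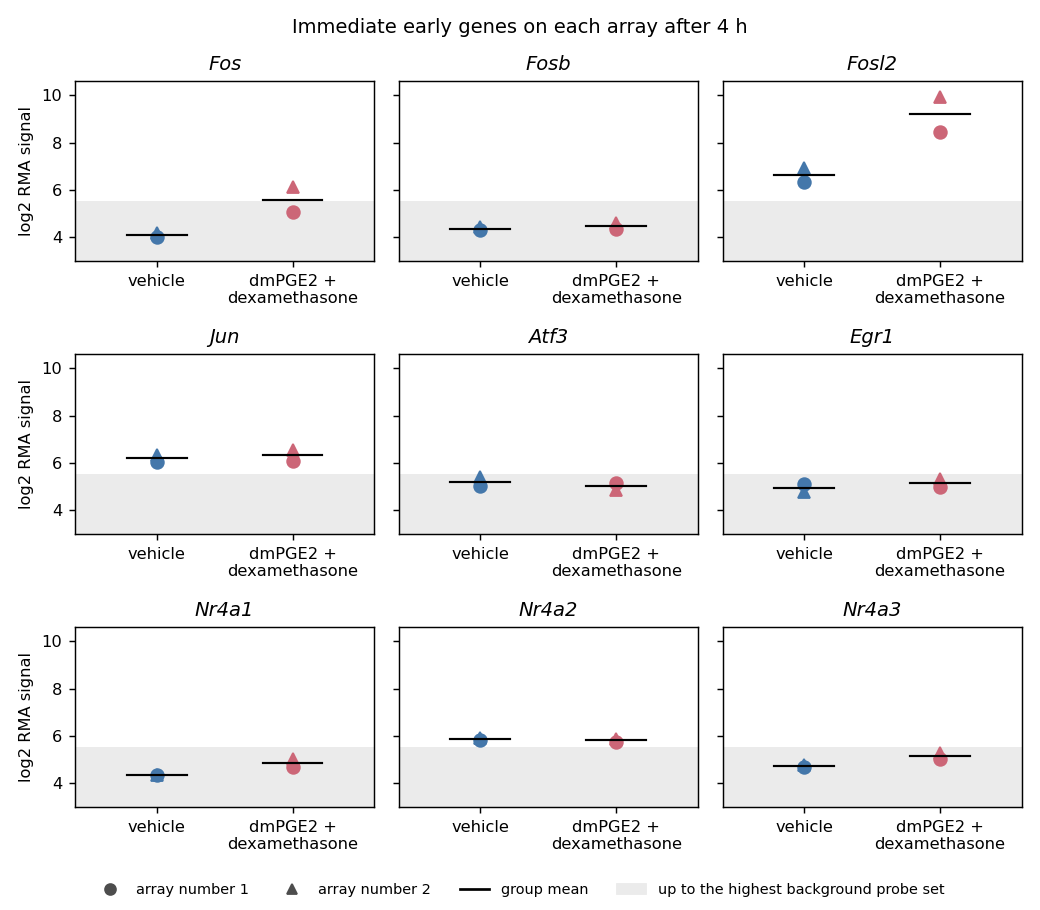
Log2 RMA signal of the 9 measured members on each array, with vehicle on the left and dmPGE2 plus dexamethasone on the right of every panel. Circles are arrays numbered 1, triangles those numbered 2, lines are group means and the grey band reaches the highest background probe set (5.55). Fosl2 lies above the band in both groups, and Fos leaves it on combination 2 only.

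Fosl2 encodes FRA-2, a FOS protein without the strong activation domain of FOS itself. Its signal (TC0500000334.mm.1) was 6.35 on vehicle 1, 6.91 on vehicle 2, 8.46 on combination 1 and 9.93 on combination 2. Both combination arrays lay above both vehicle arrays, with 1.55 between the nearest pair, and combination 2 was the higher by 1.46. The group means were 6.63 ± 0.40 and 9.19 ± 1.04 (SD, n = 2), a 5.91-fold difference. On the log2 scale this was 2.56 (SE 0.53, 95% interval 1.16 to 3.97, limma adjusted p = 0.63), and 99.9% of named genes had a smaller signed difference. Within number 1 it was 2.12 and within number 2 it was 3.01. The fold was 3.56 without combination 2 and 9.82 without combination 1.

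Fos encodes c-FOS, the founding member of the family, which cAMP and serum both induce. Its signal (TC1200000833.mm.1) was 4.00 and 4.20 on the vehicle arrays, 5.08 on combination 1 and 6.11 on combination 2. The vehicle arrays and combination 1 were thus within background, and combination 2 was above it. The groups did not overlap, with a gap of 0.88, larger than the vehicle pair's own difference of 0.20 and smaller than the 1.03 between the combination arrays. Fos differed by 1.50 (SE 0.37, 95% interval 0.52 to 2.47, limma adjusted p = 0.75), or 2.82-fold, with 1.08 within number 1 and 1.91 within number 2. Without combination 2 the fold was 1.97, and without combination 1 it was 4.03.

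Fosb, which encodes another activating FOS protein, lay in background throughout, at 4.32 and 4.43 with vehicle and 4.36 and 4.61 with the combination. The groups overlapped, and the difference of 0.12 had a 95% interval of -0.29 to 0.52, with 0.05 within number 1 and 0.18 within number 2. Jun encodes c-JUN, the usual partner of FOS proteins. It was at 6.05 and 6.34 with vehicle and 6.10 and 6.56 with the combination. These values overlapped as well, just above background, and their difference of 0.14 had an interval of -0.44 to 0.72. Within number 1 it was 0.06 and within number 2 it was 0.22. Limma's adjusted p was 0.97 for both Fosb and Jun. This p does not show that the levels were alike. Both intervals stay below 1, a doubling of the signal. Because Fosb lay in background, its interval does not limit a change in its transcript level.

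Atf3 encodes a stress-induced factor of the AP-1 superfamily that often represses its targets. It was at 5.04 and 5.39 with vehicle and 5.15 and 4.87 with the combination, all within background. The difference was -0.20 (95% interval -0.71 to 0.31, limma adjusted p = 0.96). Its sign changed between the array numbers, at 0.12 within number 1 and -0.52 within number 2. Egr1, which encodes a zinc finger factor induced by growth factor and MAP kinase signals, was at 5.11 and 4.79 with vehicle and 5.0 and 5.31 with the combination. It too lay in background on every array and differed by 0.20 (95% interval -0.31 to 0.72, limma adjusted p = 0.96), with -0.11 within number 1 and 0.52 within number 2.

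Of the NR4A genes, Nr4a1 and Nr4a3 had groups that did not overlap, and those of Nr4a2 overlapped. Nr4a1 (NUR77, TC1500001067.mm.1) was at 4.36 and 4.34 with vehicle, 4.70 on combination 1 and 5.01 on combination 2. Both combination arrays were higher, by at least 0.33, yet every value lay in background. The difference was 0.50 (SE 0.16, 95% interval 0.07 to 0.92, limma adjusted p = 0.84), or 1.41-fold, with 0.33 within number 1 and 0.66 within number 2. Nr4a3 (NOR1, TC0400000529.mm.1) was at 4.67 and 4.79 with vehicle and 5.02 and 5.30 with the combination, again all in background and again not overlapping. It differed by 0.43 (SE 0.16, 95% interval 0.01 to 0.85, limma adjusted p = 0.89), or 1.35-fold, with 0.35 and 0.51 within the numbers. Nr4a2 (NURR1) lay just above background, at 5.82 and 5.91 with vehicle and 5.75 and 5.89 with the combination. Its difference was -0.05 (95% interval -0.41 to 0.31, limma adjusted p = 0.99), with -0.08 within number 1 and -0.02 within number 2. For Nr4a1 and Nr4a3 the difference was 0.34 and 0.29 without combination 2 and 0.65 and 0.57 without combination 1. Plain RMA compresses signals near background. The highest signal on each array lay between 19.7 and 19.9, and whether the console transformed the signals further is not stated in the sources used here. How far the differences of Fos, Fosb, Atf3, Egr1, Nr4a1 and Nr4a3 reflect changes in transcript level near background is therefore unknown.

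**Figure D4:**
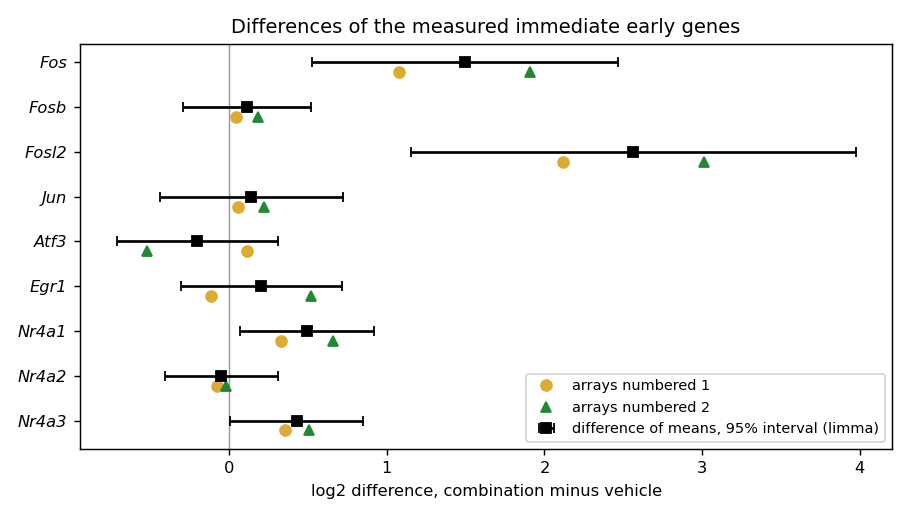
Log2 difference, combination minus vehicle, of each measured member, with black squares for the difference of means, bars for limma's 95% interval, yellow circles for the arrays numbered 1 and green triangles for those numbered 2. The intervals of Fosl2 (1.16 to 3.97), Fos, Nr4a1 and Nr4a3 lie above 0, and Atf3 and Egr1 change sign between the numbers.

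The genes around these factors were read from 8 lists, of which 67 of 72 genes were measured. By limma, 0 of the 67 passed over all features, and at an unadjusted p under 0.05, 8 were higher and 4 lower, against 2.66% and 2.65% of named genes. Their median difference was 0.03. Among 10 AP-1 dimer partners 0 were higher and 1 lower at that p. It was Batf3, which directs cross-presenting dendritic cells, at 6.94 and 7.08 with vehicle and 6.03 and 5.57 with the combination (difference -1.20, limma adjusted p = 0.49). Of the 5 dendritic cell markers given above, 3 were higher and 2 lower. Only Cd209a, which differed by -2.25, and Siglech, which differed by 0.13, lay above background. Xcr1 was in background, at 3.64 and 3.66 against 4.02 and 3.54. The part of dendritic cells was not tested. Batf2 differed by -0.26. The remaining dimer partners, among them Fosl1 and Jund, lay between -0.14 and 0.18. Of 5 EGR factors and NAB corepressors none had an unadjusted p under 0.05, with Nab2 at 0.22 and Egr3 at 0.07, and the same held for 3 RXR partners of NR4A proteins, with Rxra at -0.09 and Rxrg at 0.05.

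Among 16 other immediate early genes, 4 were higher and 1 lower at an unadjusted limma p under 0.05, against 2.66% and 2.65% of named genes. Groups did not overlap for 6 higher and 1 lower, against 19.7% and 15.4% of named genes. Dusp1, which encodes a phosphatase that switches off MAP kinases, was at 7.91 and 7.50 with vehicle and 9.61 and 10.00 with the combination. Its difference was 2.10 (SE 0.22, limma adjusted p = 0.28). Trib1, which encodes a pseudokinase that directs C/EBP-alpha degradation, was in background at 4.43 and 4.48 against 4.97 and 5.19. The zinc finger gene Klf6 differed by 1.73, Ier3 by 0.98 and Myc by -0.77, and these 3 are named after their values were seen, to complete the count of 5. That count was 7 with the replicate block, and 4 with median-centred arrays and with control rows kept. It fell without vehicle 1, vehicle 2 or combination 2 and rose without combination 1, in fits with fewer residual degrees of freedom. Dusp1 and Klf6, like Fosl2, had their highest signal on combination 2.

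Upstream of AP-1, 6 genes of serum response factor and its cofactors had no unadjusted p under 0.05, with Elk1 at 0.37 and Elk3 at -0.29, and without combination 1 the count was 1. Against 2.66% of named genes, 1 of 7 measured MAP kinase genes was higher at that p. This was Map2k4, a kinase that activates JNK, at 10.37 and 9.92 against 10.62 and 11.00 (limma adjusted p = 0.87), and the count was 0 without combination 2, with an intensity trend, with median-centred arrays and with control rows kept, and 2 with the replicate block. Mapk9, which encodes a JNK, differed by -0.45. In the cAMP arm, 1 of 9 genes was higher and 1 lower at that p, against 2.66% and 2.65% of named genes. Both were CREB coactivators. Crtc3 was at 7.03 and 7.07 with vehicle and 7.63 and 8.11 with the combination, a difference of 0.82 (limma adjusted p = 0.75). Crtc1 was at 6.54 and 6.46 against 6.01 and 5.93, a difference of -0.53 (limma adjusted p = 0.75). Crtc2 differed by 0.03 and Creb1 by 0.21. Without vehicle 1 the count of 2 in this arm was 0.

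Of 11 measured textbook AP-1 targets, 2 were higher and 1 lower at an unadjusted limma p under 0.05, against 2.66% and 2.65% of named genes. Plaur, which encodes the urokinase receptor, was at 10.43 and 10.77 with vehicle and 13.52 and 14.84 with the combination. It differed by 3.58 (SE 0.47, limma adjusted p = 0.34), with both combination arrays more than 2 above either vehicle array. Plau, the gene of urokinase itself, was in background and differed by -0.40 (limma adjusted p = 0.84), and Timp1, an inhibitor of metalloproteases that was also in background, differed by 0.54 (limma adjusted p = 0.85). The collagenase genes Mmp13 and Mmp9, classic AP-1 targets, were in background on every array and differed by 0.10 and 0.09. The median of this list was 0.04. Its count of 3 became 1 without vehicle 2, 1 without combination 1 and 1 without combination 2, and it was 1 of the 7 genes left by the filter on dim features.

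**Figure D5:**
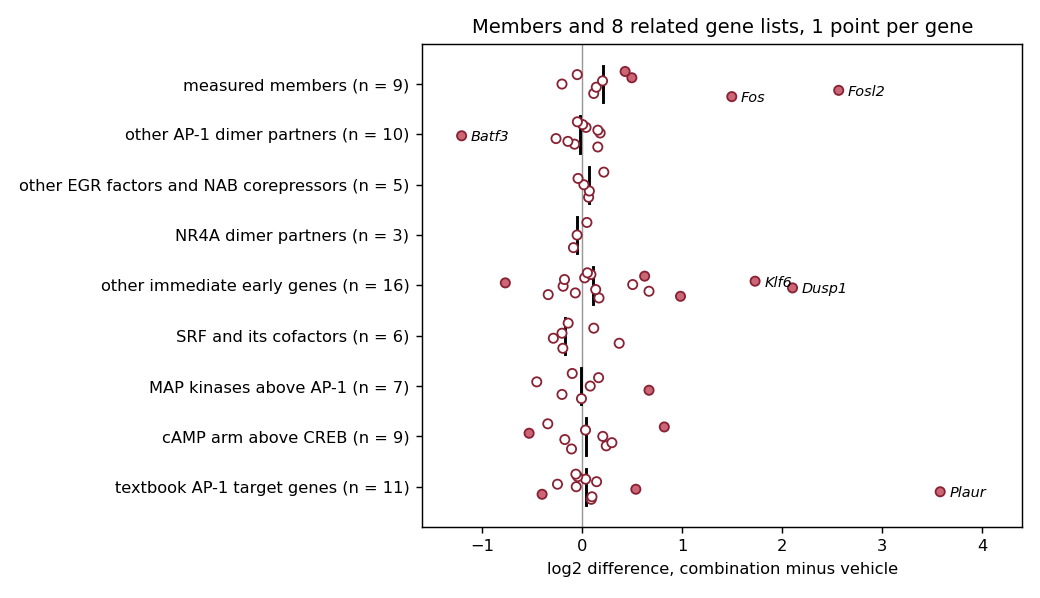
Log2 difference, combination minus vehicle, for the 9 measured members and 8 related lists, with 1 point per gene, filled where the unadjusted limma p is under 0.05, and a black bar at each list's median. Fosl2 and Fos stand at 2.56 and 1.50, Dusp1 at 2.10, Plaur at 3.58 and Batf3 at -1.20, and the list medians lie between -0.17 and 0.20.

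The genes whose pattern was nearest to that of Fos were sought among 18919 protein-coding genes outside the lists, by Euclidean distance over the 4 arrays after centring each gene on its vehicle mean. They were Edil3 (distance 0.16 on the log2 scale), Coro6 (0.16) and Antxr2 (0.21). Edil3 was at 3.64 and 3.83 with vehicle and 4.65 and 5.60 with the combination. Over 4 arrays such a distance describes these samples only.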

How the data were processed

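The authors deposited log2 signals, summarised by RMA within the Transcriptome Analysis Console according to the submitters' processing notes. Because RMA equalises the arrays' distributions, a global shift in RNA content is invisible. No source used here gives versions or a build. Per the labels' protocols, 10 ng of total RNA was amplified per array. Precision is limited by the number of arrays.

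Of 72688 rows, 6732 control rows were left out, recognised by identifier. Of the 65956 features, 30604 had 1 gene symbol (repeats of a symbol counted once), 2146 had several and 33206 had none listed. Symbols were updated through the RefSeq table of GRCm38.p6 for 827 features. A gene with several features was read from the one with the highest mean. The test was limma 3.58.1 (lmFit, eBayes, R 4.3.3), two-sided, with group as the only term, on all features with Benjamini-Hochberg adjustment and a threshold of 0.05. There were 2 residual degrees of freedom and 2.59 from the prior. Promoter windows came from RefSeq and were searched in Python 3.11.15.

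The members and lists were chosen with earlier results of these data known. Named were all members and, per related list, every gene that passed, or otherwise the 2 of smallest p. Other names, such as the rest of a count, were chosen with values in view. The fit was repeated with a replicate block, other priors, a filter on dim features, other scalings, control rows kept, features averaged per gene and each array left out.

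On simulated data for the 65956 features of this comparison, in 5 simulations, the fit called 0.4% of features changed by 1 on the log2 scale, 41.2% of those changed by 2 and 82.8% of those changed by 3. Each simulation changed 200 features. Its noise was independent between arrays, with SDs drawn from the fitted prior and no effect of array number. These rates need not hold for a gene such as Fosl2, whose combination arrays had an SD of 1.04.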

Additional observations from a re-analysis of the deposited data

How the results depend on the processing

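No member passed limma's adjusted threshold of 0.05 under any of the 12 alternatives run, and 3 or 4 had an unadjusted p under 0.05 in the 8 that kept all arrays. Nr4a3 was the member that missed this limit, with a p between 0.051 and 0.069, under an intensity trend, the filter on dim features, a second quantile normalization, median centring and kept control rows. Leaving out 1 array gave 1 to 4 such members, 5 to 8 with groups that did not overlap, since a group of 1 array overlaps less easily, and a median difference of 0.05 to 0.37. The shares of named genes were not taken in these fits. Neither count can therefore be set against a background share, and no conclusion is drawn from them. In these fits the sign turned for 3 members near 0. Differences ran from -0.0089 to 0.241 for Fosb, -0.0886 to 0.372 for Jun (-0.0055 without vehicle 1) and -0.119 to 0.0214 for Nr4a2. The cause was not tested. The array numbers are shared between groups, but 2 pairs are too few to show pairing. Deviations of same-numbered arrays correlated at 0.33 over features. With the replicate block, 0 members passed over all features and 4 had an unadjusted p under 0.05, with limma adjusted p of 0.12 for Fosl2 and 0.26 for Fos. Over all alternatives that kept 4 arrays, the adjusted p lay between 0.12 and 0.72 for Fosl2 and between 0.26 and 0.80 for Fos. Signals within background limit what can be read for Fosb, Egr1, Atf3, Nr4a1 and Nr4a3.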
